A study of Mus musculus with 24 samples.

Results

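Ear skin of K14E7 donors (E7) was compared with ear skin of C57BL/6 donors (C57) 28 days after each had been grafted onto C57BL/6 recipients. The 6 libraries compared, 3 of each donor, were taken by their titles from the 24 libraries of the series, and all 6 were sequenced on the same flow cell and lane. K14E7 mice carry the E7 oncogene of human papillomavirus 16 behind the promoter of keratin 14, which is active in basal keratinocytes of the epidermis and hair follicle. C57BL/6 mice carry no transgene and are the recipient strain, so that the C57 grafts are skin of the recipient's own strain and share the surgery and the time in place with the E7 grafts. The other 18 libraries were E7 and C57 grafts 14 days after grafting (dpg), ungrafted ear skin of 8-week-old E7 and C57 mice, and grafts of CD1d-/-xK14E7 donors at 14 and 28 dpg, again with 3 libraries in each of 8 groups. A graft was taken whole, so recipient cells that had entered it were sequenced with the donor tissue.

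The E7 protein binds the retinoblastoma protein (Rb) and its relatives, which in resting cells hold the E2F transcription factors inactive, and E2F targets such as the genes of DNA replication are then transcribed. Skin that expresses E7 in its basal layer is known to be hyperplastic and to carry immune cells in its dermis. Type I and type III interferons act through the interferon-stimulated response element in the promoters of antiviral genes, and interferon gamma raises antigen-presentation genes and guanylate-binding proteins.

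The data were read counts per gene of whole grafts, given here as CPM, counts scaled to a common normalised library size. Totals of the 6 libraries were 6550011 to 10988772 counts, and 18857 to 19572 genes, with or without a symbol, had a count. Mitochondrial transcripts made up 1.48 to 1.76% of a library, and its 10 most abundant genes 6.28 to 8.38%. The leading principal component held 65.3% of the variance and separated the E7 from the C57 grafts, and no library correlated better with the other donor (highest r = 0.946) than with its own (lowest r = 0.978). The labels do not say whether the 3 libraries of a group came from separate animals, so p-values measure the spread between these libraries. Fewer cells of a type and less RNA per cell cannot be told apart in RNA of whole tissue.

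The transgene followed the labels. The E7 row held 0 counts in each C57 graft and 25.8, 34.4 and 27.2 CPM in the E7 grafts (664 counts in all), at least 247-fold higher when the C57 group is set to the floor of 3 counts. The tissue label was checked against its defining markers. The basal keratins Krt5 and Krt14 were read at 3061 CPM or more in every library, the suprabasal keratins Krt1 and Krt10 at 2438 CPM or more, and Col1a1, the main collagen of dermis, at 3977 CPM or more.

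Short promoter sequences are shown for genes of the pathways described most fully below, from the RefSeq start sites of GRCm38.p6, the build to which mm10 corresponds. Each is the 150 bases just before the outermost RefSeq start of the gene, 5′ to 3′ on the strand of the gene. Genes were shown only where these bases held the motif, so the sequences do not stand for their lists. In the replication genes Mcm6 and Gins3 the capitals mark an E2F-type motif, TTTCCCGC or TTTGGCGC, on either strand. Mcm6 lies at chr1:128359706-128359855 on the minus strand and Gins3 at chr8:95633409-95633558 on the plus strand.
Mcm6: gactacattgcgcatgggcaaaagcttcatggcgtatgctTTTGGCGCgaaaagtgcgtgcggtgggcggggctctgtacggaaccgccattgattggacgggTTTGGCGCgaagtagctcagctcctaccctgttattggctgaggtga
Gins3: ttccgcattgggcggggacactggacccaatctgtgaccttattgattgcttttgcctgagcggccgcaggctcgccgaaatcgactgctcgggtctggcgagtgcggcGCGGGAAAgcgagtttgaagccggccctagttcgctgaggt
In the antiviral genes Oas1g, Isg15 and Rsad2 the capitals mark the core of an interferon-stimulated response element, GAAANNGAAA, on either strand. Oas1g lies at chr5:120887614-120887763, Isg15 at chr4:156200819-156200968 and Rsad2 at chr12:26456453-26456602, all on the minus strand. In Oas1g 2 and in Isg15 3 overlapping matches form the run of capitals.
Oas1g: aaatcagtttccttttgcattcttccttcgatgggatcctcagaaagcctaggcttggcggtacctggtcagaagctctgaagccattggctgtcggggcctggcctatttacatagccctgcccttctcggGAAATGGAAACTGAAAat
Isg15: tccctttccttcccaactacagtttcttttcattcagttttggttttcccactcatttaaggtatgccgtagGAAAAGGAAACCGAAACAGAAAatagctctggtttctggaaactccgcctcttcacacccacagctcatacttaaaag
Rsad2: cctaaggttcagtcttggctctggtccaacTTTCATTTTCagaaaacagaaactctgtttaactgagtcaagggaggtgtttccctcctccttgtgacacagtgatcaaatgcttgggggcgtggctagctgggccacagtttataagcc
Windows of 300 bases, 250 before and 50 after a start, were searched for 27025 genes of the promoter table, which does not hold every gene. It holds 32851 windows, and a gene with several was counted once, as a match if any of them held the motif. The E2F-type motif was found for 1.8% of all these genes, for 3.05% of the 12241 genes among them that were tested at 28 dpg, for 5.98% of the 2590 that rose in E7 grafts, for 11 of 33 genes (33.3%) of the replication lists and for 1 of 22 genes (4.55%) of the interferon list. The response element was found for 3.99% of all genes, for 3.89% of the tested genes, for 5.14% of those that rose, for none of the 33 replication genes and for 13 of 22 genes (59.1%) of the interferon list. A match describes the letters in these windows and is not a measured binding site.

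E7 and C57 grafts differed across a large part of the transcriptome. Of 16189 genes tested, 35.4% passed an adjusted p of 0.05 in edgeR's quasi-likelihood test, 3345 higher (20.7%) and 2383 lower (14.7%) in E7 grafts, and 817 and 522 of these differed by at least 1 on the log2 scale. With upper-quartile scaling the balance turned, with 2700 higher and 2939 lower. The libraries of the donors did not overlap for 8639 genes (53.4%). The median log2 fold change of all genes was 0.01. Because more than 1 in 3 genes passed, each list below is read against these shares. In what follows "rose" and "fell" are used of genes past the threshold in E7 against C57 grafts at 28 dpg, errors of log2 fold changes are standard errors and errors of CPM values are standard deviations of 3 libraries.

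**Figure D1:**
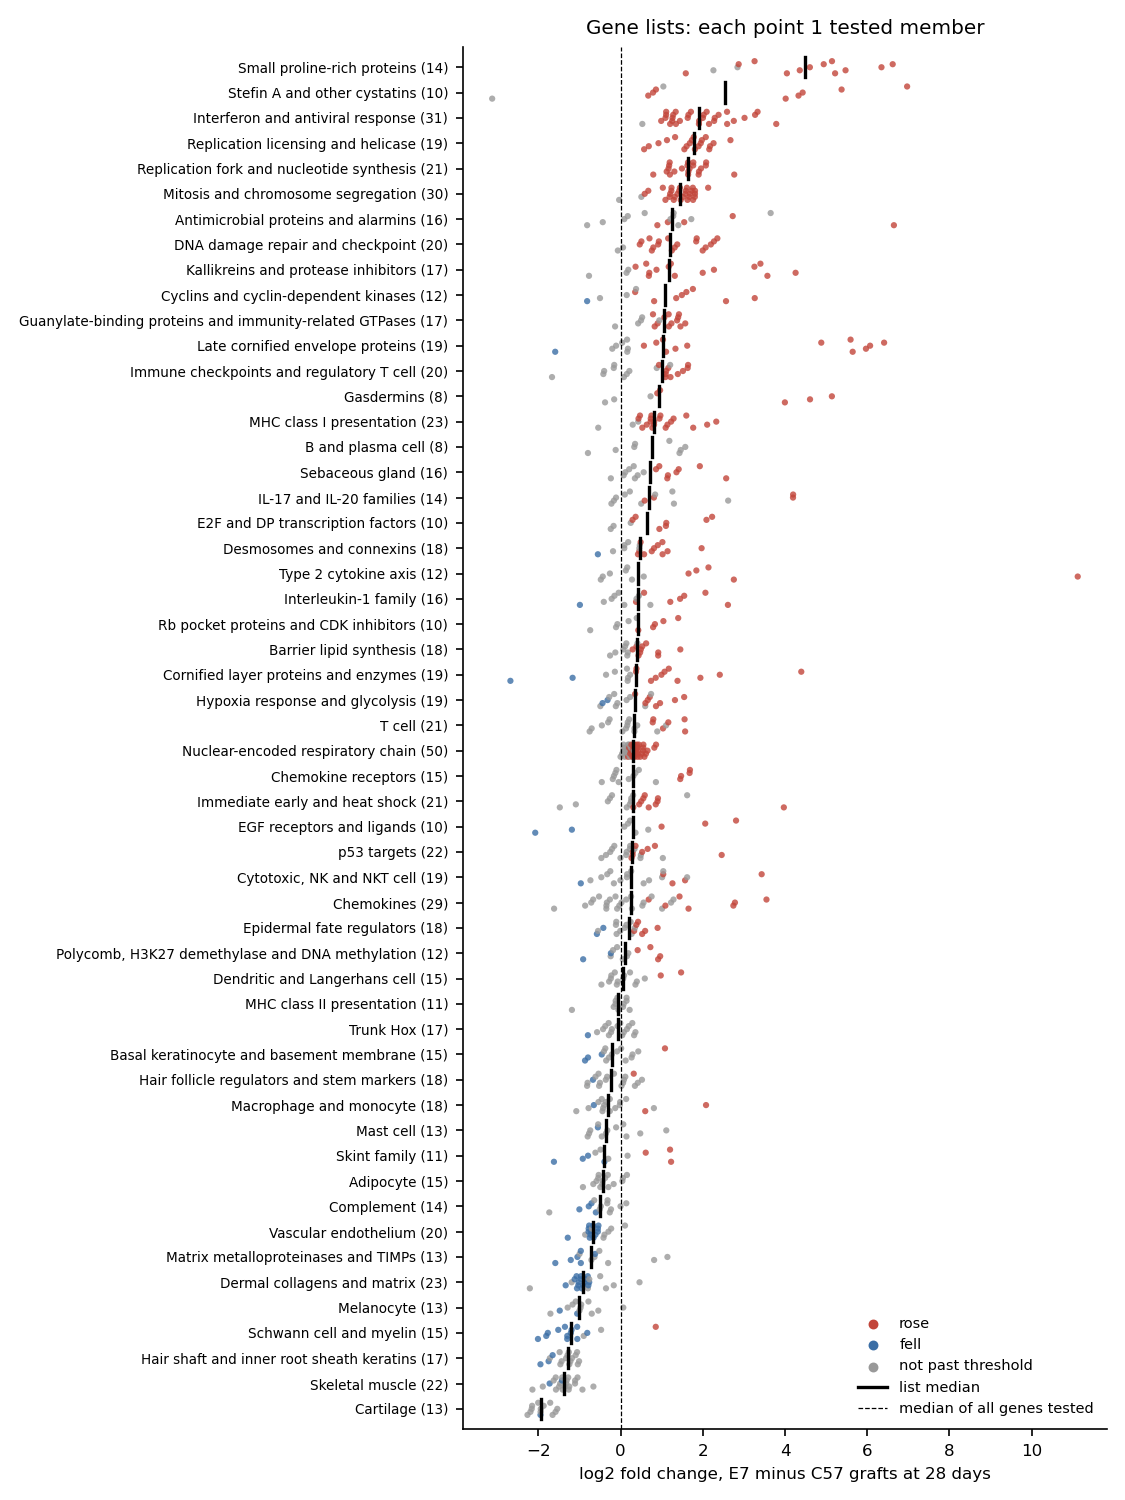
Log2 fold change of E7 against C57 grafts at 28 dpg (horizontal axis) for the tested members of each gene list with 8 or more tested members (rows). Red points rose, blue points fell and grey points did not pass the threshold, black bars are list medians, the dashed line is the median of all genes, and the fitted values of members with 3 or fewer counts in a group depend on the prior count of the fit. The replication, interferon and small proline-rich lists lie wholly above 0, and the muscle, cartilage and hair keratin lists wholly below it.

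Genes that act downstream of Rb rose together in E7 grafts. The pocket proteins themselves differed, since Rb1 rose by 0.43 ± 0.08 and Rbl1, which encodes p107, by 1.40 ± 0.11, whereas Rbl2 did not pass. Rb1 was read at 56.9, 57.02 and 63.3 CPM in the C57 grafts and 71.3, 82.2 and 85.0 CPM in the E7 grafts. Rbl1 was read at 21.7, 26.4 and 24.4 CPM in the C57 grafts and 63.4, 68.3 and 59.4 CPM in the E7 grafts. All E7 libraries lay above all C57 libraries for both genes. Of 10 genes of E2F and DP factors 7 rose and none fell, with a median log2 fold change of 0.65. The largest changes were in the repressor members E2f7, at 4.28, 5.59 and 3.33 CPM in the C57 grafts and 17.4, 21.4 and 23.0 CPM in the E7 grafts, and E2f8, at 9.26, 8.25 and 10.1 CPM in the C57 grafts and 38.7, 41.1 and 38.0 CPM in the E7 grafts. The E7 libraries were clear of the C57 libraries in both (E2f7 log2 fold change 2.23 ± 0.23, adjusted p = 4.31e-06; E2f8 log2 fold change 2.09 ± 0.18, adjusted p = 7.68e-07), and the activators E2f1 (1.11 ± 0.12) and E2f2 (1.10 ± 0.19) rose with smaller values.

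Cyclins of the G1/S step had the largest folds of the cyclin list, and cyclin D genes did not rise. Ccne1, which encodes the cyclin E1 partner of Cdk2, was read at 3.65, 3.77 and 3.61 CPM in the C57 grafts and 32.9, 40.9 and 32.5 CPM in the E7 grafts. The C57 libraries were nearly equal and every E7 library was far above them (log2 fold change 3.26 ± 0.28, adjusted p = 9.32e-07). Ccne2 rose by 2.56 ± 0.34, the S-phase cyclin Ccna2 by 1.49 ± 0.16, and Cdk1 and Ccnb2 of mitosis by 1.76 ± 0.13 and 1.35 ± 0.14. Ccnd1, the cyclin that acts upstream of Rb, did not pass, with 110.2, 109 and 119.6 CPM in the C57 grafts and 85.1, 64.9 and 88.7 CPM in the E7 grafts (log2 fold change -0.50 ± 0.22, adjusted p = 0.0883). Of the list of 12 cyclins and kinases 8 rose and Ccnd2 fell, with a median of 1.08.

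All 19 replication licensing and helicase genes rose (median 1.78), as did all 21 genes of the replication fork and nucleotide synthesis (median 1.64). Mcm5, a subunit of the replicative helicase (Entrez 17218, chr8:75109468-75128439), was read at 22.2, 24.6 and 18.7 CPM in the C57 grafts and 135, 138 and 145 CPM in the E7 grafts. No E7 library came near a C57 library, and the gene stood 6.37-fold higher (log2 fold change 2.67 ± 0.16, adjusted p = 6.10e-08). Mcm6 and Gins3, whose upstream sequences are shown above, rose by 2.26 ± 0.14 and 0.92 ± 0.13. Mcm2, Mcm3 and Mcm4, of the same helicase, rose by 2.17 ± 0.16, 2.16 ± 0.12 and 1.90 ± 0.12. Of the licensing factors Cdt1 rose by 2.07 ± 0.16 and Cdc6 by 1.73 ± 0.18, and geminin (Gmnn), the inhibitor of Cdt1, by 1.95 ± 0.17. Rrm2, the regulated subunit of ribonucleotide reductase, was read at 17.9, 21.9 and 16.5 CPM in the C57 grafts and 122, 146 and 114 CPM in the E7 grafts. Its groups were again separate (log2 fold change 2.76 ± 0.28, adjusted p = 5.52e-06). The sliding clamp Pcna rose by 1.68 ± 0.14, thymidylate synthase (Tyms) by 1.64 ± 0.14 and the primase subunit Prim1 by 1.91 ± 0.16. The summed level of the licensing list was 268.2 to 287.2 CPM in C57 and 949 to 1029 CPM in E7 libraries.

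Mitotic genes followed with a smaller median. Of 30 genes 28 rose (median 1.45), and Pttg1 and Ttk did not pass. Mki67, a marker of cycling cells, was read at 102, 146 and 129 CPM in the C57 grafts and 377, 436 and 435 CPM in the E7 grafts, with no overlap (log2 fold change 1.73 ± 0.16, adjusted p = 2.00e-06). Top2a rose by 1.76 ± 0.12, the spindle factor Tpx2 by 1.81 ± 0.13, the mitotic regulator Foxm1 by 1.21 ± 0.13 and the anaphase activator Cdc20 by 1.29 ± 0.15. DNA repair and checkpoint genes rose in 18 of 20 cases (median 1.20), among them the homologous recombination gene Brca1 (2.19 ± 0.19), while Atr and Parp1 did not pass.

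**Figure D2:**
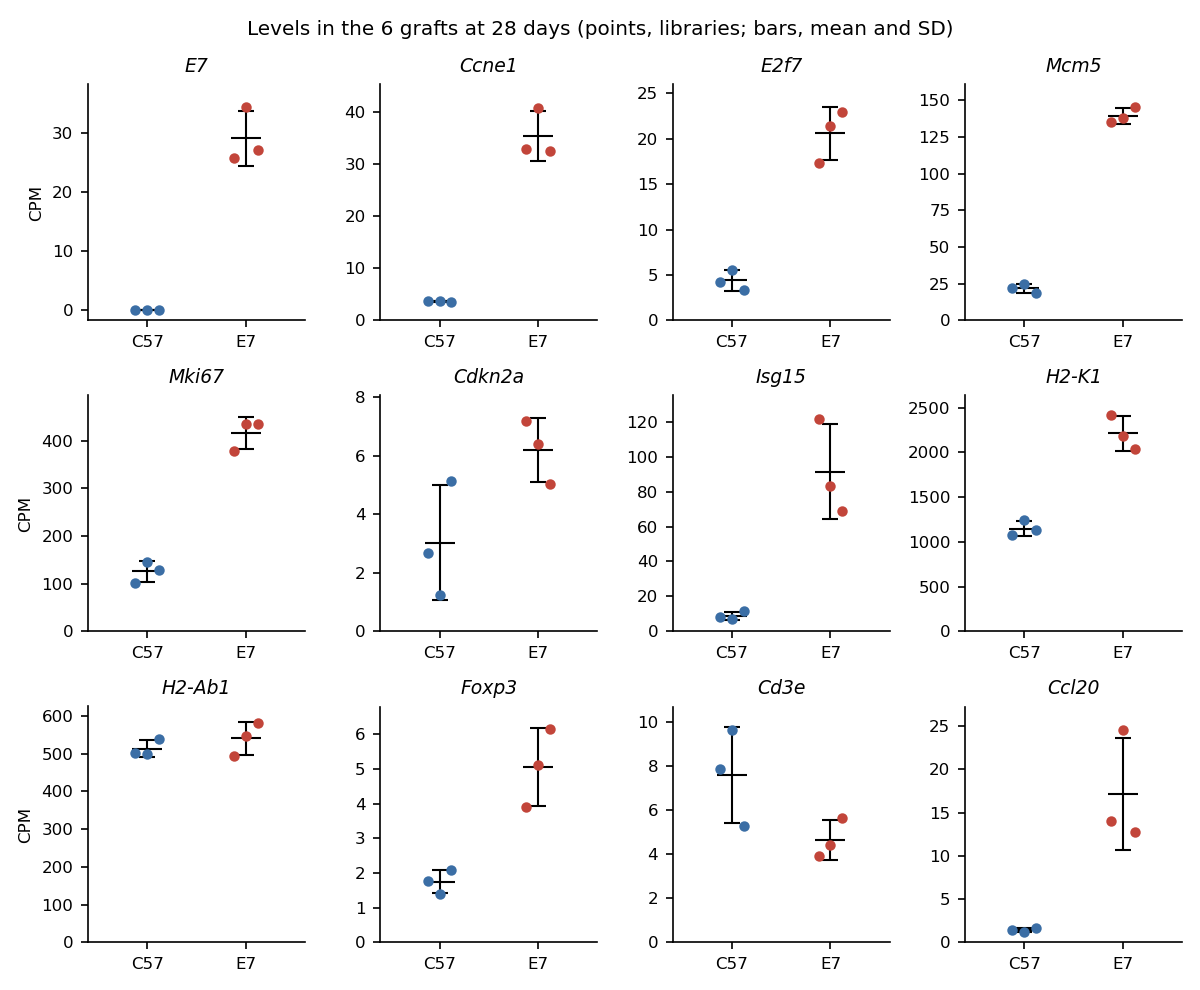
Level in CPM (vertical axes, linear and from 0) of 12 genes in the 3 C57 and 3 E7 grafts at 28 dpg. Points are libraries and bars the mean and standard deviation. The groups are separate for Ccne1, E2f7, Mcm5, Mki67, Isg15, H2-K1, Foxp3 and Ccl20 and overlap for Cdkn2a, H2-Ab1 and Cd3e, and E7 transcript is at 0 in C57 grafts.

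Inhibitors of the cell cycle and targets of p53 were mixed. Cdkn1a, which encodes p21, was read at 229, 226 and 229 CPM in the C57 grafts and 409, 446 and 366 CPM in the E7 grafts and rose in a tight pair of groups (log2 fold change 0.83 ± 0.18, adjusted p = 0.00257). Cdkn2d rose by 0.79 ± 0.13, and Cdkn2b and Cdkn2c did not pass. Cdkn2a, which encodes p16 and ARF and is a known marker of E7 activity, was read at 2.67, 1.26 and 5.13 CPM in the C57 grafts and 7.17, 6.39 and 5.02 CPM in the E7 grafts. C57 replicate 3 lay above E7 replicate 3, so the groups overlapped, and the gene passed narrowly (log2 fold change 1.04 ± 0.37, adjusted p = 0.0368). That call was lost without C57 replicate 1 (adjusted p = 0.114), without C57 replicate 2 (adjusted p = 0.128), without E7 replicate 1 (adjusted p = 0.109) or without E7 replicate 2 (adjusted p = 0.0812). Of 22 p53 targets 8 rose and none fell (median 0.28), and 5 rose without C57 replicate 2, without E7 replicate 1 or without E7 replicate 2, while upper-quartile scaling left 4 higher and 3 lower. Pmaip1, which encodes the pro-apoptotic NOXA, rose most, from 9.53, 8.11 and 8.46 to 38.0, 52.98 and 53.7 CPM (log2 fold change 2.46 ± 0.24, adjusted p = 3.64e-06). The E7 libraries were separate from the C57 libraries. Bax, another pro-apoptotic target, was read at 39.5, 41.8 and 40.0 CPM in the C57 grafts and 40.9, 42.6 and 37.4 CPM in the E7 grafts and its groups overlapped (log2 fold change -0.00 ± 0.12, adjusted p = 0.983).

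Enzymes that write DNA and histone methylation changed unevenly. Dnmt1, the maintenance methyltransferase, rose by 0.96 ± 0.11, its cofactor Uhrf1 by 1.96 ± 0.15, and the Polycomb subunits Ezh2 and Suz12 by 0.91 ± 0.12 and 0.72 ± 0.09. Kdm6b, a demethylase of the Polycomb mark, did not pass (log2 fold change 0.19 ± 0.13, adjusted p = 0.293). In that list of 12 genes 4 rose and Bmi1 and Tet1 fell (median 0.10), and 1 fell without C57 replicate 2, without C57 replicate 3 or without E7 replicate 3.

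Among the epidermal lists a larger share of members passed in the wound keratin, small proline-rich and cornified-layer lists than in the basal list. That difference between lists was not tested. Of 15 basal keratinocyte and basement membrane genes only Krt14 rose, and 3 fell (median -0.21). Without E7 replicate 1 there was 1 that fell, without C57 replicate 2 there were 2 that rose, and with only the 6 libraries in the fit 8 fell and 3 rose. Krt14 itself was read at 3701, 3061 and 3114 CPM in the C57 grafts and 6282, 6901 and 7679 CPM in the E7 grafts, a rise of 1.08 ± 0.19 (adjusted p = 5.95e-04). Krt5, its dimer partner, was read at 4698, 4810.3 and 4407 CPM in the C57 grafts and 4961, 5629.9 and 6421 CPM in the E7 grafts. The Krt5 groups did not overlap but the difference did not pass (log2 fold change 0.29 ± 0.14, adjusted p = 0.108). Krt15, a keratin of quiet basal and follicle stem cells, fell from 937, 1501 and 1061 to 546, 742 and 632 CPM (log2 fold change -0.87 ± 0.25, adjusted p = 0.0149), a call that was lost without C57 replicate 2 (adjusted p = 0.0740) or without E7 replicate 1 (adjusted p = 0.0620). Dst, which encodes the hemidesmosome plakin BPAG1, fell by 0.79 ± 0.08 on the log2 scale (adjusted p = 4.08e-06), and Col17a1 and Trp63 did not pass.

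The suprabasal keratins did not move as a set. Krt1 was read at 3342, 3112 and 2438 CPM in the C57 grafts and 14878, 16009 and 16457 CPM in the E7 grafts, a clear separation (log2 fold change 2.41 ± 0.28, adjusted p = 1.16e-05). Krt10, the partner with which keratin 1 forms filaments, was read at 14869, 12472 and 13204 CPM in the C57 grafts and 14946, 15081 and 15858 CPM in the E7 grafts. The highest C57 library lay just below the lowest E7 library and the difference did not pass (log2 fold change 0.18 ± 0.29, adjusted p = 0.656). Krt2, the keratin of the upper spinous and granular layers of ear skin, went from 10761, 7117 and 10256 CPM in C57 to 1619, 2345 and 422 CPM in E7 grafts. All E7 libraries were lower and E7 replicate 3 was the lowest (log2 fold change -2.68 ± 0.91, adjusted p = 0.0342), and the call was lost without C57 replicate 1 (adjusted p = 0.0704), without C57 replicate 3 (adjusted p = 0.0689), without E7 replicate 1 (adjusted p = 0.0817) or without E7 replicate 3 (adjusted p = 0.106). Krt24 (Entrez 75706, chr11:99279959-99285262) fell further, from 187, 107 and 145 to 11.6, 4.55 and 4.39 CPM (log2 fold change -4.41 ± 0.49, adjusted p = 1.71e-05). It stood low in all E7 libraries.

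Wound keratins, which keratinocytes turn on in injured or hyperproliferative epidermis, rose in 4 of 4 cases. Krt16 (Entrez 16666, chr11:100246091-100248902) was read at 83.5, 52.5 and 35.4 CPM in the C57 grafts and 3310.2, 3420.2 and 3168 CPM in the E7 grafts. The change was among the largest of all genes (log2 fold change 5.84 ± 0.35, adjusted p = 6.10e-08). Krt6a rose by 3.25 ± 0.42, Krt6b by 4.48 ± 0.53 and Krt17 by 1.87 ± 0.32.

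Cornified-layer genes rose more often than they fell. In the list of 19 cornified proteins and enzymes 11 rose and Flg2 and Krt2 fell (median 0.38), and 1 fell without C57 replicate 1, without C57 replicate 3, without E7 replicate 1 or without E7 replicate 3. Filaggrin (Flg), which binds keratin filaments in the cornified layer, was read at 987, 637 and 578 CPM in the C57 grafts and 2067, 1975 and 1708 CPM in the E7 grafts and its groups were separate (log2 fold change 1.38 ± 0.25, adjusted p = 8.10e-04). Rptn, of the same fused-type family, rose from 35.3, 28.8 and 18.9 to 690.1, 368 and 699 CPM (log2 fold change 4.40 ± 0.51, adjusted p = 2.54e-05). E7 replicate 2 was the lowest of the E7 libraries and still far above C57. Involucrin (Ivl) rose by 0.85 ± 0.13, the crosslinking enzyme Tgm1 by 0.99 ± 0.16, Casp14 by 1.07 ± 0.25 and cornifelin (Cnfn) by 1.94 ± 0.15. Loricrin (Lor), the most abundant protein of the envelope, did not pass, at 2939, 2704 and 2648 CPM in the C57 grafts and 2329.6, 2499 and 1655 CPM in the E7 grafts (log2 fold change -0.35 ± 0.23, adjusted p = 0.231).

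Most late cornified envelope genes rose. Of 19 tested 12 rose and Lce1m fell (median 1.03), and the risers were 6 of 6 genes of group 3 and 6 of 13 of group 1, a difference that was not tested. Lce3c was read at 3.74, 1.96 and 1.804 CPM in the C57 grafts and 97.1, 60.5 and 77.0 CPM in the E7 grafts, with E7 far above C57 (log2 fold change 4.88 ± 0.33, adjusted p = 3.43e-07). Lce3e and Lce3f rose by 5.59 ± 0.55 and 5.65 ± 0.61. Lce3a held 3 counts in the C57 and 260 in the E7 grafts, a ratio with a 95% counting interval of 32.7 to 471. Lce1a1 was read at 399.7, 378 and 386 CPM in the C57 grafts and 436, 461 and 404 CPM in the E7 grafts (log2 fold change 0.16 ± 0.20, adjusted p = 0.550). Reads of near-identical members of this family could have been split between them by the counting.

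Small proline-rich proteins are envelope cross-bridgers that rise in wounded epidermis. Of 14 tested 12 rose, and all 14 had E7 libraries above all C57 libraries. The median was 4.48, or 4.18 with members of 3 or fewer counts at their bound. Sprr1b was read at 18.4, 5.45 and 4.30 CPM in the C57 grafts and 372, 333 and 399 CPM in the E7 grafts, and C57 replicate 1 was the highest C57 library (log2 fold change 5.22 ± 0.46, adjusted p = 2.37e-06). Sprr2a3 was read at 4.01, 3.77 and 4.30 CPM in the C57 grafts and 407, 492 and 293 CPM in the E7 grafts (log2 fold change 6.62 ± 0.76, adjusted p = 2.57e-05). Its E7 libraries spread more than its C57 libraries but none approached them. Sprr2f had 1 count in C57 and 101 in E7 grafts (ratio interval 19.7 to 4488). The Sprr2 genes are near-identical, so their separate values are uncertain.

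**Figure D3:**
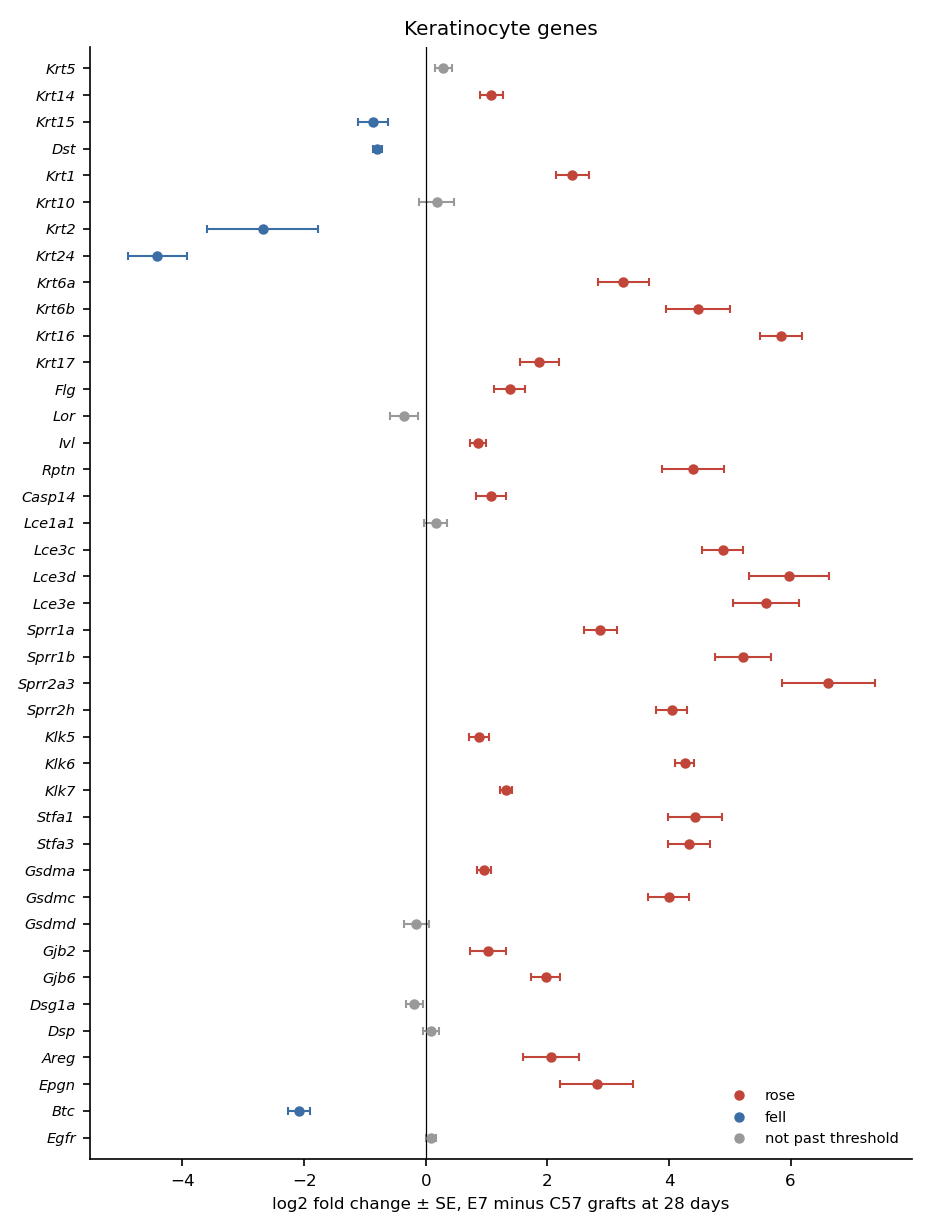
Log2 fold change with standard error (horizontal axis) of 41 keratinocyte genes in E7 against C57 grafts at 28 dpg. Krt16, Sprr2a3 and Lce3e lie far to the right, Krt24 and Btc to the left, and Krt10, Lor, Lce1a1, Dsp and Egfr near 0.

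Proteases of the cornified layer and their inhibitors rose widely, with 14 of 17 genes up and none down (median 1.17). Klk6 (Entrez 19144, chr7:43824438-43832027), a kallikrein protease, was read at 20.9, 21.8 and 24.7 CPM in the C57 grafts and 443, 463 and 381 CPM in the E7 grafts. Both groups were tight and wide apart (log2 fold change 4.26 ± 0.15, adjusted p = 1.18e-10). Klk9 rose by 2.27 ± 0.13, and the desquamation proteases Klk7 and Klk5 rose by 1.32 ± 0.10 and 0.87 ± 0.17. Of 10 tested stefin and cystatin genes, which encode cysteine protease inhibitors, 8 rose. Their median was 2.53, or 1.58 with members of few counts at their bound. Stfa1 was read at 5.52, 3.35 and 2.22 CPM in the C57 grafts and 91.3, 84.0 and 76.1 CPM in the E7 grafts and Stfa3 at 20.7, 11.7 and 9.02 CPM in the C57 grafts and 339.7, 248 and 263 CPM in the E7 grafts. The E7 libraries were separate from the C57 libraries for both (4.43 ± 0.44 and 4.33 ± 0.34), although the copies of this cluster share sequence. Cstb, a stefin outside the cluster, rose by 0.67 ± 0.06.

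Gasdermins form membrane pores when cleaved, and Gsdma and Gsdmc are members of skin. Gsdmc was read at 42.0, 17.7 and 24.1 CPM in the C57 grafts and 414, 455 and 488 CPM in the E7 grafts, with C57 replicate 1 the highest of its group (log2 fold change 4.00 ± 0.34, adjusted p = 1.60e-06). Gsdma rose by 0.96 ± 0.11. Gsdmd was read at 35.5, 42.1 and 45.4 CPM in the C57 grafts and 35.6, 37.2 and 37.1 CPM in the E7 grafts and its groups overlapped (log2 fold change -0.16 ± 0.20, adjusted p = 0.577). Of 8 tested members 5 rose (median 0.93), and the Gsdmc copies are alike in sequence.

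Antimicrobial genes of wounded skin were mostly not changed past the threshold. Of 16 tested 5 rose (median 1.25, or 1.18 with the member of few counts at its bound). Lpo, which encodes lactoperoxidase (Entrez 76113, chr11:87806428-87826114), was read at 0.624, 0.978 and 0.277 CPM in the C57 grafts and 64.1, 70.9 and 57.8 CPM in the E7 grafts and was nearly absent from C57 grafts (log2 fold change 6.65 ± 0.39, adjusted p = 6.10e-08). The alarmin Il1a rose by 1.55 ± 0.13 and the defensin Defb6 by 1.15 ± 0.20. S100a8, the calprotectin subunit of neutrophils and stressed keratinocytes, was read at 5.70, 2.93 and 2.77 CPM in the C57 grafts and 14.0, 17.5 and 8.28 CPM in the E7 grafts. The E7 libraries lay above C57 but varied, and it did not pass (log2 fold change 1.72 ± 0.90, adjusted p = 0.152). Slpi overlapped (log2 fold change 0.17 ± 0.65, adjusted p = 0.857).

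Ligands of the EGF receptor changed in opposite directions. Of 10 tested receptors and ligands 3 rose and 2 fell (median 0.30). Epgn rose by 2.81 ± 0.60. Areg, a ligand of proliferating keratinocytes, was read at 3.03, 2.52 and 7.91 CPM in the C57 grafts and 18.1, 16.3 and 20.3 CPM in the E7 grafts. C57 replicate 3 was the highest C57 library but below all E7 libraries (log2 fold change 2.06 ± 0.45, adjusted p = 0.00322). Btc (Entrez 12223, chr5:91357261-91402994), another ligand, was read at 49.5, 51.0 and 45.6 CPM in the C57 grafts and 14.6, 11.4 and 8.65 CPM in the E7 grafts and fell by 2.08 ± 0.18 on the log2 scale (adjusted p = 9.32e-07). Every E7 library was below every C57 library. Egfr itself did not pass, at 96.3, 100.3 and 105 CPM in the C57 grafts and 102, 104 and 116 CPM in the E7 grafts (log2 fold change 0.09 ± 0.08, adjusted p = 0.387).

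Junction, barrier lipid and fate genes showed smaller rises. Of 18 desmosome and connexin genes 11 rose and 1 fell (median 0.48). The gap junction gene Gjb6 was read at 9.80, 10.2 and 11.0 CPM in the C57 grafts and 39.4, 38.8 and 42.9 CPM in the E7 grafts (log2 fold change 1.97 ± 0.24, adjusted p = 2.88e-05), whereas the desmosomal Dsp (0.09 ± 0.13) and Dsg1a (-0.19 ± 0.14) did not pass. Of 18 barrier lipid genes 10 rose (median 0.40), and 6 rose without C57 replicate 1 or without C57 replicate 2. Elovl4, which makes very long acyl chains, rose by 1.45 ± 0.29 and the ceramide synthase Cers3 by 0.92 ± 0.15. Of 18 fate regulators 6 rose and 2 fell (median 0.19), and without C57 replicate 1, without C57 replicate 3, without E7 replicate 2 or without E7 replicate 3 there were 3 that rose. The count of falls was 1 without C57 replicate 2, without C57 replicate 3, without E7 replicate 2 or without E7 replicate 3, where Jag1 lost its call. The differentiation factor Ovol1 rose by 0.90 ± 0.15, and Notch1 did not pass (log2 fold change 0.14 ± 0.10, adjusted p = 0.281).

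Skint genes, which encode butyrophilin-like proteins of keratinocytes and thymus, moved apart. Skint1, which selects the dendritic epidermal T cells, was read at 22.6, 19.6 and 20.3 CPM in the C57 grafts and 43.5, 49.3 and 51.4 CPM in the E7 grafts and rose (log2 fold change 1.20 ± 0.23, adjusted p = 0.00102). Skint3 rose by 0.61 ± 0.16. Skint5 was read at 103, 111 and 107 CPM in the C57 grafts and 30.6, 36.2 and 37.4 CPM in the E7 grafts and fell (log2 fold change -1.62 ± 0.35, adjusted p = 0.00278), and Skint9 fell by 0.92 ± 0.14 on the log2 scale. The groups did not overlap for any of these members. Of the whole family 3 of 11 rose and 4 fell (median -0.39).

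Appendage genes showed less separation. Of 17 tested hair shaft and inner root sheath keratins none rose and 3 fell (median -1.29). No member fell without C57 replicate 2, without C57 replicate 3 or without any 1 of the E7 libraries, and 9 fell when only the 6 libraries were fitted. Krt71, of the inner root sheath, was read at 221, 474 and 517 CPM in the C57 grafts and 97.6, 132 and 265 CPM in the E7 grafts, and Tchh, which hardens that sheath, at 382, 656 and 773 CPM in the C57 grafts and 151, 211 and 434 CPM in the E7 grafts. C57 replicate 1 was low and E7 replicate 3 high for both, so the groups overlapped (Krt71 log2 fold change -1.29 ± 0.59, adjusted p = 0.102; Tchh log2 fold change -1.18 ± 0.58, adjusted p = 0.129). Hair growth itself varies with the phase of the follicle, and summed levels ran from 1101 to 2384 CPM in C57 and from 495 to 1189 CPM in E7 libraries. Of 18 follicle regulators Nfatc1 rose and Cd34 fell, the former call lost without C57 replicate 1 (adjusted p = 0.0644), without C57 replicate 3 (adjusted p = 0.0864), without E7 replicate 2 (adjusted p = 0.0632) or without E7 replicate 3 (adjusted p = 0.0699) and the latter without C57 replicate 2 (adjusted p = 0.0531), without C57 replicate 3 (adjusted p = 0.0620), without E7 replicate 1 (adjusted p = 0.0868) or without E7 replicate 2 (adjusted p = 0.0822). Sox9 (log2 fold change 0.06 ± 0.19, adjusted p = 0.827) and Shh (log2 fold change -0.33 ± 0.91, adjusted p = 0.806) overlapped.

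Of 16 sebaceous gland genes 8 rose (median 0.71), 3 without C57 replicate 2, 4 without C57 replicate 3 and 5 without E7 replicate 1. With only the 6 libraries fitted 11 rose. The wax synthase Awat2 was read at 7.04, 5.03 and 4.99 CPM in the C57 grafts and 17.4, 29.0 and 19.8 CPM in the E7 grafts (log2 fold change 1.93 ± 0.44, adjusted p = 0.00391). Dgat2l6 rose by 2.57 ± 0.57 and the lipid-droplet coat gene Plin2 by 1.14 ± 0.22. Scd1, a desaturase of sebocytes and adipocytes, did not pass (log2 fold change 0.11 ± 0.35, adjusted p = 0.825). Of 13 melanocyte genes 2 fell (median -1.001), and 7 fell with only the 6 libraries fitted. None fell without C57 replicate 2 or without E7 replicate 3, and 1 fell without C57 replicate 3, without E7 replicate 1 or without E7 replicate 2. The pigment genes Dct (-1.001 ± 0.59) and Tyr (-1.09 ± 0.68) did not pass.

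Genes of the dermis and its vessels and nerves were lower in E7 grafts. Of 23 dermal matrix genes 15 fell and none rose (median -0.91). The count rested on single libraries, with 3 without C57 replicate 1, 4 without C57 replicate 3, 5 without E7 replicate 1, 3 without E7 replicate 2 and 9 when only the 6 libraries were fitted. Col1a1 was read at 11606, 6184 and 10182 CPM in the C57 grafts and 3977, 4227 and 5196 CPM in the E7 grafts. C57 replicate 2 was the lowest C57 library and stayed above all E7 libraries (log2 fold change -1.06 ± 0.25, adjusted p = 0.00400). Sparc, a collagen-binding matricellular protein, fell by 1.34 ± 0.27 on the log2 scale and the proteoglycan gene Lum by 1.12 ± 0.25. Postn overlapped (log2 fold change -0.17 ± 0.23, adjusted p = 0.594). Summed over the list, C57 libraries held 28651 to 54647 CPM and E7 libraries 19479 to 28417 CPM. Of 13 metalloproteinases and inhibitors 6 fell, among them Timp2 at 1081, 946 and 1102 CPM in the C57 grafts and 508, 557 and 534 CPM in the E7 grafts (log2 fold change -0.97 ± 0.19, adjusted p = 0.00130), and Mmp9 and Mmp13 did not pass. The E7 libraries were lower for Timp2 throughout. Whether the share of dermis in the grafts differed was not tested.

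Of 20 endothelial genes 13 fell and none rose (median -0.66), 7 without E7 replicate 1 and 8 without E7 replicate 2. The von Willebrand factor gene Vwf was read at 92.1, 92.4 and 82.7 CPM in the C57 grafts and 53.3, 54.0 and 48.7 CPM in the E7 grafts (log2 fold change -0.78 ± 0.17, adjusted p = 0.00304). Robo4 fell by 0.78 ± 0.17 on the log2 scale and the receptor Tie1 by 0.75 ± 0.18, and the adhesion molecule Vcam1 did not pass. Of 15 Schwann cell and myelin genes 12 fell and Egr2 rose (median -1.21), and none rose without C57 replicate 3. Prx, which encodes the myelin protein periaxin, was read at 36.2, 75.2 and 59.1 CPM in the C57 grafts and 27.0, 26.1 and 20.1 CPM in the E7 grafts (log2 fold change -1.21 ± 0.22, adjusted p = 7.28e-04). Cdh19, of the Schwann cell lineage, fell by 1.30 ± 0.22 on the log2 scale.

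Other tissues that a graft can carry varied from library to library. Of 22 skeletal muscle genes 2 fell in the fit of 18 libraries, 19 when only the 6 libraries were fitted and none without C57 replicate 1, without C57 replicate 2 or without any 1 of the E7 libraries (median -1.38, or -1.34 with the member of few counts at its bound). The myosin gene Myh4 was read at 1049, 806 and 333 CPM in the C57 grafts and 216, 164 and 115 CPM in the E7 grafts. C57 replicate 3 was closest to the E7 libraries and no library overlapped (log2 fold change -2.15 ± 0.96, adjusted p = 0.0979). Cartilage, which the ear contains, was read very unevenly, with Col2a1 at 284.9, 50.9 and 182 CPM in the C57 grafts and 63.5, 70.5 and 1.13 CPM in the E7 grafts. E7 replicate 3 held almost none, C57 replicate 2 was as low as the other E7 grafts, and the gene did not pass (log2 fold change -1.95 ± 1.16, adjusted p = 0.203). Of 13 cartilage genes 1 fell (median -1.95), 2 without C57 replicate 2 and none without C57 replicate 1, without C57 replicate 3, without E7 replicate 2 or without E7 replicate 3. Of 15 adipocyte genes none passed, or 2 fell without E7 replicate 1, and Adipoq was high in C57 replicates 2 and 3 and in E7 replicate 1 (25.7, 79.2 and 65.5 CPM in the C57 grafts and 73.0, 19.3 and 19.9 CPM in the E7 grafts). Hox genes of the trunk, markers of skin next to the graft, were low, with 1 of 17 lower and a median of -0.07. These levels move between libraries beside the dermal results, and their part in those was not tested.

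Interferon-stimulated genes rose almost without exception. Of 31 genes 30 rose and all 31 had E7 libraries above all C57 libraries (median 1.91), with Irf1 the member that did not pass. Isg15, a ubiquitin-like antiviral protein (Entrez 100038882, chr4:156199424-156200818), was read at 8.37, 7.27 and 11.7 CPM in the C57 grafts and 122, 83.4 and 68.9 CPM in the E7 grafts. E7 replicate 1 was the highest, and all E7 libraries were well above C57 (log2 fold change 3.33 ± 0.36, adjusted p = 1.19e-05). Oas1a, a sensor of double-stranded RNA, was read at 12.7, 8.94 and 13.6 CPM in the C57 grafts and 92.9, 73.9 and 72.5 CPM in the E7 grafts (log2 fold change 2.75 ± 0.22, adjusted p = 7.46e-07). Oas1g and Rsad2, whose upstream sequences are shown above with that of Isg15, rose by 3.01 ± 0.26 and 2.59 ± 0.36, and Mx1 by 2.38 ± 0.32. Of the signalling genes Irf7 rose by 2.27 ± 0.28 and Irf9 by 1.25 ± 0.11, and the RNA sensor Ifih1 by 1.71 ± 0.14. Summed, the list held 815 to 1023 CPM in C57 and 2581 to 3331 CPM in E7 libraries. Oas1 genes are near-identical copies, so values of single copies are uncertain. Transcript of interferon gamma itself was close to the limit of detection, with 1 count of Ifng in the C57 and 13 in the E7 grafts (ratio interval 2.18 to 616). The call of Ifng was lost on leaving out any 1 of the 6 libraries (adjusted p = 0.0588 to 0.122) and with upper-quartile scaling (adjusted p = 0.0519).

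Guanylate-binding proteins and immunity-related GTPases, which interferon gamma induces, rose in 12 of 17 cases (median 1.06), 4 without C57 replicate 1, 5 without C57 replicate 2 and 4 without E7 replicate 1. Irgm1 was read at 27.2, 30.9 and 39.5 CPM in the C57 grafts and 99.96, 79.7 and 80.3 CPM in the E7 grafts and its groups were separate (log2 fold change 1.42 ± 0.24, adjusted p = 4.46e-04), Igtp rose by 1.57 ± 0.29, and Gbp4 and Gbp5 did not pass. The chemokine gene Cxcl10, which both kinds of interferon induce, was read at 5.79, 6.15 and 9.99 CPM in the C57 grafts and 56.6, 51.0 and 37.4 CPM in the E7 grafts (log2 fold change 2.74 ± 0.42, adjusted p = 2.92e-04). Cxcl9, which depends more on interferon gamma, was read at 8.46, 7.13 and 11.2 CPM in the C57 grafts and 32.7, 16.9 and 12.9 CPM in the E7 grafts. E7 replicate 1 alone was far above C57 and the gene did not pass (log2 fold change 1.23 ± 0.60, adjusted p = 0.128).

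Antigen presentation divided by class. Of 23 MHC class I genes 20 rose (median 0.81), whereas none of 11 class II genes passed (median -0.05). H2-K1, a classical class I heavy chain, was read at 1074, 1240.1 and 1134 CPM in the C57 grafts and 2419, 2179 and 2039.8 CPM in the E7 grafts, and B2m, its light chain, at 1007, 1051 and 1134 CPM in the C57 grafts and 2106, 2039 and 2098 CPM in the E7 grafts. Each E7 library was above each C57 library (H2-K1 log2 fold change 0.94 ± 0.13, adjusted p = 7.58e-05; B2m log2 fold change 0.97 ± 0.15, adjusted p = 1.79e-04). H2-Q7, a non-classical molecule, rose by 2.11 ± 0.26, the peptide transporter Tap1 by 1.23 ± 0.14 and the class I activator Nlrc5 by 0.73 ± 0.13. The class II gene H2-Ab1 was read at 502, 499 and 538 CPM in the C57 grafts and 494, 547 and 581 CPM in the E7 grafts. Its groups overlapped (log2 fold change 0.08 ± 0.20, adjusted p = 0.794), as did those of the invariant chain Cd74 (log2 fold change -0.12 ± 0.22, adjusted p = 0.704) and the class II activator Ciita (log2 fold change 0.06 ± 0.23, adjusted p = 0.865). The difference between the classes was not tested as such.

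T cell genes were mixed. Of 21 T cell genes 6 rose (median 0.33), and 3 rose without C57 replicate 3, without E7 replicate 1 or without E7 replicate 2. Cd3e, part of the receptor complex, was read at 7.84, 9.64 and 5.27 CPM in the C57 grafts and 3.90, 4.40 and 5.64 CPM in the E7 grafts. The groups overlapped, with C57 replicates 1 and 2 above E7 (log2 fold change -0.70 ± 0.36, adjusted p = 0.135). Cd4 (log2 fold change 0.04 ± 0.34, adjusted p = 0.931) and Cd8a (log2 fold change 0.89 ± 0.69, adjusted p = 0.331) did not pass. Trdc, of the gamma-delta receptor that dendritic epidermal T cells carry, did not pass either (log2 fold change -0.75 ± 0.48, adjusted p = 0.237). Icos, a costimulatory receptor, was read at 3.56, 2.93 and 2.77 CPM in the C57 grafts and 9.05, 9.80 and 9.16 CPM in the E7 grafts and rose with separate groups (log2 fold change 1.57 ± 0.22, adjusted p = 8.28e-05).

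Of 20 checkpoint and regulatory T cell genes 10 rose and none fell (median 1.01). Foxp3, the defining factor of regulatory T cells, was read at 1.78, 1.40 and 2.08 CPM in the C57 grafts and 3.90, 5.11 and 6.15 CPM in the E7 grafts. All 3 E7 libraries were above all C57 libraries (log2 fold change 1.52 ± 0.23, adjusted p = 1.88e-04). The receptors GITR (Tnfrsf18) and OX40 (Tnfrsf4) rose by 1.09 ± 0.15 and 1.16 ± 0.17. PD-L1 (Cd274), a checkpoint ligand that interferon raises, was read at 20.9, 16.5 and 22.5 CPM in the C57 grafts and 51.8, 43.9 and 43.5 CPM in the E7 grafts (log2 fold change 1.21 ± 0.17, adjusted p = 8.02e-05), and its groups were separate too. Ctla4 rose by 1.11 ± 0.32, and the call was lost without C57 replicate 1 (adjusted p = 0.0521). The suppressive enzymes Ido1 and Arg1 overlapped (Ido1 log2 fold change -1.67 ± 1.10, adjusted p = 0.250; Arg1 log2 fold change -0.40 ± 0.77, adjusted p = 0.714), with C57 replicate 3 the highest for Ido1 at 4.86 CPM.

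Cytotoxic, NK and NKT cell genes were near the background, with 4 of 19 higher and Zbtb16 lower (median 0.26). The count of rising genes was 1 without C57 replicate 1 or without E7 replicate 3, and 2 without C57 replicate 2, without C57 replicate 3 or without E7 replicate 2. The call of Zbtb16 was lost without C57 replicate 1 (adjusted p = 0.0798), without E7 replicate 2 (adjusted p = 0.0859) or without E7 replicate 3 (adjusted p = 0.0849). Gzmc rose by 1.26 ± 0.28, the perforin gene Prf1 did not pass (log2 fold change -0.73 ± 0.45, adjusted p = 0.218), and Cd1d1, which presents lipids to NKT cells, was read at 15.1, 27.7 and 21.2 CPM in the C57 grafts and 26.2, 21.6 and 23.2 CPM in the E7 grafts with overlapping groups (log2 fold change 0.16 ± 0.30, adjusted p = 0.714).

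Of 29 tested chemokines 7 rose (median 0.25). Ccl20, the ligand of Ccr6, was read at 1.43, 1.26 and 1.66 CPM in the C57 grafts and 14.1, 24.6 and 12.8 CPM in the E7 grafts. E7 replicate 2 was highest and all were above C57 (log2 fold change 3.55 ± 0.61, adjusted p = 5.43e-04). Ccl22, which binds Ccr4, rose by 1.43 ± 0.23. The neutrophil attractant Cxcl1 was near 0 in each group and overlapped (log2 fold change -0.53 ± 0.75, adjusted p = 0.612), and the monocyte attractant Ccl2 overlapped too (log2 fold change 0.25 ± 0.42, adjusted p = 0.670). Of 15 receptors 4 rose, namely Ccr6 (1.45 ± 0.33), Ccr8 (1.68 ± 0.41), Ccr7 (1.47 ± 0.37) and Cxcr2 (1.69 ± 0.33). Cxcr2 was read at 9.00, 3.63 and 6.66 CPM in the C57 grafts and 22.9, 21.9 and 18.9 CPM in the E7 grafts. It serves neutrophils and is also read in keratinocytes, and the neutrophil markers Ly6g, Mpo and Ngp were too low to test, at 0 to 0.880 CPM in any of the 6 libraries. Of 4 neutrophil genes tested Cxcr2 rose, and 2 rose without C57 replicate 3.

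Interleukin-1 family genes were mixed. Of 16 genes 7 rose and Il1f10 fell (median 0.42), and none fell without C57 replicate 1, without C57 replicate 2, without E7 replicate 1 or without E7 replicate 2. Il1f8, which encodes IL-36 beta, was read at 17.7, 13.6 and 16.1 CPM in the C57 grafts and 59.3, 66.6 and 73.2 CPM in the E7 grafts (log2 fold change 2.06 ± 0.21, adjusted p = 4.79e-06), and Il1f9, which encodes IL-36 gamma, rose by 1.45 ± 0.17. Il1b was read at 14.9, 2.10 and 4.86 CPM in the C57 grafts and 7.92, 12.1 and 18.3 CPM in the E7 grafts and overlapped (log2 fold change 0.72 ± 0.66, adjusted p = 0.414), and Il33 did as well (log2 fold change 0.09 ± 0.40, adjusted p = 0.882). Of 14 IL-17 and IL-20 family genes 4 rose (median 0.70). Il23a, a subunit of IL-23, had 3 counts in C57 and 55 in E7 grafts (ratio interval 6.63 to 102). The receptor chain Il17rc rose by 0.58 ± 0.09 and Nfkbiz, a target of IL-17 signalling, by 0.81 ± 0.14, while Il17a was too low to test.

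In the type 2 list 5 of 12 tested genes rose (median 0.42). Il13, the type 2 effector cytokine, was read at 0.356, 0.280 and 0.277 CPM in the C57 grafts and 2.26, 2.70 and 1.63 CPM in the E7 grafts. All E7 libraries lay above C57 although levels were low (log2 fold change 2.75 ± 0.65, adjusted p = 0.00448), and its decoy receptor Il13ra2 rose by 1.84 ± 0.43. Chil4, a chitinase-like protein of type 2 inflammation, had 0 counts in C57 and 791 in E7 grafts, at least 294-fold higher against the floor of 3 counts. E7 replicate 3 held most of it, at 10.9, 8.52 and 80.8 CPM over the E7 libraries, and with only the 6 libraries fitted the call was lost (adjusted p = 0.149). Tslp, an epithelial inducer of type 2 responses, overlapped (log2 fold change -0.43 ± 0.34, adjusted p = 0.328).

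Most myeloid and other leukocyte genes did not pass. Of 18 macrophage and monocyte genes 2 rose and 1 fell (median -0.31), and 5 fell when only the 6 libraries were fitted. Ly6c2, of inflammatory monocytes, was read at 3.39, 2.80 and 4.58 CPM in the C57 grafts and 10.8, 18.6 and 16.1 CPM in the E7 grafts (log2 fold change 2.08 ± 0.32, adjusted p = 2.01e-04), with no overlap. The clearance receptor Mertk fell by 0.65 ± 0.17 on the log2 scale, and Adgre1, which encodes F4/80, overlapped (log2 fold change -0.26 ± 0.27, adjusted p = 0.477). The Langerhans cell lectin Cd207 was read at 20.0, 17.6 and 17.8 CPM in the C57 grafts and 16.7, 19.6 and 15.8 CPM in the E7 grafts and did not pass (log2 fold change -0.09 ± 0.23, adjusted p = 0.782), while Epcam, shared by Langerhans cells and keratinocytes, rose by 0.98 ± 0.12. None of 8 B and plasma cell genes passed, and of 13 mast cell genes Gata2 fell, a call lost without C57 replicate 1, without C57 replicate 3, without E7 replicate 1 or without E7 replicate 2, while 4 fell without E7 replicate 3. The mast cell proteases Cma1 and Mcpt4 overlapped. Of 14 complement genes 4 fell (median -0.50), 1 without C57 replicate 1, without C57 replicate 3 or without E7 replicate 2 and 2 without E7 replicate 1, and Cd59a, which protects cells from lysis, fell by 1.00 ± 0.17 on the log2 scale.

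Most respiratory chain genes rose by small amounts. Of 50 nuclear-encoded respiratory chain genes 34 rose and none fell, with a median of 0.31. Ndufa4 was read at 86.5, 94.6 and 94.8 CPM in the C57 grafts and 159, 161 and 167 CPM in the E7 grafts (log2 fold change 0.82 ± 0.11, adjusted p = 3.76e-05) and cytochrome c1 (Cyc1) at 87.6, 90.7 and 86.6 CPM in the C57 grafts and 135, 131 and 121 CPM in the E7 grafts (log2 fold change 0.55 ± 0.06, adjusted p = 1.14e-05). The groups were separate in both. Of 19 hypoxia and glycolysis genes 8 rose (median 0.35), such as hexokinase Hk2 (1.32 ± 0.14), lactate dehydrogenase Ldha (0.71 ± 0.09) and the glucose transporter Slc2a1 (0.96 ± 0.22), whereas the hypoxia markers Car9 and Vegfa did not pass. Ndrg1 and P4ha1 fell, but 1 fell without C57 replicate 1 or without C57 replicate 2 and none without C57 replicate 3 or without any 1 of the E7 libraries. Of 21 immediate early and heat shock genes, which can move with handling of tissue, 10 rose, 6 without C57 replicate 2 or without E7 replicate 2 and 5 without C57 replicate 3 or without E7 replicate 1. Fos was read at 95.4, 36.3 and 22.2 CPM in the C57 grafts and 44.1, 38.4 and 47.8 CPM in the E7 grafts and Egr1 at 244, 94.2 and 82.4 CPM in the C57 grafts and 139.8, 119 and 106 CPM in the E7 grafts. C57 replicate 1 was high for both and neither passed. Arc, an immediate early gene, was read at 12.7, 1.82 and 2.36 CPM in the C57 grafts and 91.7, 105 and 96.3 CPM in the E7 grafts and rose (log2 fold change 3.97 ± 0.57, adjusted p = 1.58e-04). The globin genes, a sign of blood, did not pass (Hba-a1 98.5, 29.8 and 63.8 CPM in the C57 grafts and 43.1, 12.8 and 39.0 CPM in the E7 grafts).

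Some of the largest changes lay outside these lists. Adgrg7, an adhesion receptor, held 1 count in the C57 and 267 in the E7 grafts (ratio interval 52.9 to 11793). Among the falls Gng13, a G protein subunit of sensory cells, went from 7.22, 6.99 and 9.99 to 0.251, 0.284 and 0.251 CPM (log2 fold change -4.87 ± 0.53, adjusted p = 7.45e-06). Nptx1, a neuronal pentraxin, was read at 28.1, 23.8 and 32.0 CPM in the C57 grafts and 2.89, 3.13 and 6.40 CPM in the E7 grafts (log2 fold change -2.75 ± 0.37, adjusted p = 5.62e-05), and the flavin monooxygenase Fmo2 at 43.2, 34.0 and 42.7 CPM in the C57 grafts and 7.67, 8.38 and 4.89 CPM in the E7 grafts (log2 fold change -2.52 ± 0.28, adjusted p = 8.41e-06). E7 libraries were lower without overlap in all of these. Chrnb4, an acetylcholine receptor subunit, fell by 2.54 ± 0.25 on the log2 scale, and Scg2, of secretory granules, by 3.36 ± 0.76.

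Whether the E7 effect at 28 dpg differed from that at 14 dpg was tested as the difference of the effects, over 12 libraries that share no control. Of 16189 genes 27 passed (0.167%), 24 with a larger and 3 with a smaller log2 fold change at 28 dpg, and 1508 had an unadjusted p under 0.05. With DESeq2 the split was 86 larger and 69 smaller, and with only these 12 libraries fitted 32 larger and 23 smaller. The count was 12 without C57 replicate 3 of 28 dpg, 15 without E7 replicate 1 or 3 of 28 dpg, 17 without E7 replicate 2 of 28 dpg or C57 replicate 1 of 14 dpg, and 72 without E7 replicate 3 of 14 dpg. For all 24 the mean of the C57 grafts was lower at 28 than at 14 dpg, and for 23 all C57 libraries of 28 dpg were below all of 14 dpg. The E7 libraries of 28 dpg were all below those of 14 dpg for 6 of the 24 and all above for 8. For 20 of them the E7 mean was above the C57 mean on both days. The C57 change between days is part of the difference that chose these 24 genes, which favours lower C57 levels at 28 dpg. The same shares over all genes were not counted, so these counts only describe the chosen genes. In 8 of the 27 the difference passed under every alternative tried, leaving aside the log2 limit of 1.

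Krt16, Klk6 and Cstdc5 are given as examples. Among 4 wound keratins 1 passed for this difference, and among 14 small proline-rich genes none did (median differences 2.61 and 2.50). Krt16 stood at 1241, 619 and 967 CPM in C57 and 4103, 3352 and 3561 CPM in E7 grafts at 14 dpg. At 28 dpg the C57 grafts stood at 83.5, 52.5 and 35.4 CPM and the E7 grafts at 3310.2, 3420.2 and 3168 CPM. The difference of the effects was 3.88 ± 0.41 on the log2 scale, adjusted p = 8.62e-04. Klk6 went from 124, 98.9 and 82.8 CPM at 14 dpg to 20.9, 21.8 and 24.7 CPM at 28 dpg in C57 grafts, and from 503, 414 and 477 to 443, 463 and 381 CPM in E7 grafts (2.07 ± 0.19 on the log2 scale, adjusted p = 1.62e-04). The E7 libraries of the days overlapped for both Krt16 and Klk6, and the C57 libraries did not. Cstdc5, of the stefin cluster, was at 424, 272 and 366 CPM in C57 and 957, 1489 and 633 CPM in E7 grafts at 14 dpg, against 19.7, 9.92 and 7.21 and 505, 434 and 446 CPM at 28 dpg (3.66 ± 0.49 on the log2 scale, adjusted p = 0.00871). Here both donors were lower at 28 dpg. Of the 24 genes 4 carry names of the stefin cluster, whose copies share sequence.

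Lpo was at 9.76, 6.23 and 8.45 CPM in C57 and 66.1, 83.7 and 73.8 CPM in E7 grafts at 14 dpg, before the values given above for 28 dpg (3.46 ± 0.53 on the log2 scale, adjusted p = 0.0146). The difference missed the threshold without C57 replicate 1 of 28 dpg (adjusted p = 0.0733) and without C57 replicate 3 of 28 dpg (adjusted p = 0.0582). The protease gene Prss27 and the transporter gene Slc5a8, chosen for mention after their values were seen, had differences of 1.36 ± 0.20 on the log2 scale, adjusted p = 0.00951 and of 1.77 ± 0.23 on the log2 scale, adjusted p = 0.00452. Both were lower in C57 grafts at 28 than at 14 dpg, Slc5a8 at 29.4, 32.1 and 26.0 against 7.66, 7.55 and 9.30 CPM, and overlapped between the days in E7 grafts.

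Btc went the other way. It stood at 9.76, 10.6 and 8.33 CPM in C57 and 9.81, 11.8 and 11.0 CPM in E7 grafts at 14 dpg, with overlap, and at 28 dpg it was high in the C57 grafts alone (-2.27 ± 0.26 on the log2 scale, adjusted p = 0.00130). The cell-cycle genes Birc5 and Pold1 also had larger effects at 28 dpg, but most genes of their lists did not pass. Past the threshold were 1 of 30 mitosis and 1 of 21 replication fork genes (median differences 0.51 and 0.39). None of 19 licensing and none of 20 repair genes passed (median differences 0.50 and 0.28). Birc5, which encodes survivin, stood at 26.5, 27.2 and 26.3 CPM in C57 and 44.6, 50.7 and 40.8 CPM in E7 grafts at 14 dpg, and at 11.8, 14.3 and 12.8 and 38.3, 39.5 and 37.5 CPM at 28 dpg (0.81 ± 0.13 on the log2 scale, adjusted p = 0.0158). Pold1, of DNA polymerase delta, gave 0.74 ± 0.12 on the log2 scale, adjusted p = 0.0158. C57 grafts were lower at 28 dpg in both genes. Neither passed without C57 replicate 1 of 28 dpg (adjusted p = 0.0561 for each). Birc5 also failed without C57 replicate 3 of 28 dpg (adjusted p = 0.0582) and Pold1 without E7 replicate 1 of 28 dpg (adjusted p = 0.0549).

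**Figure D4:**
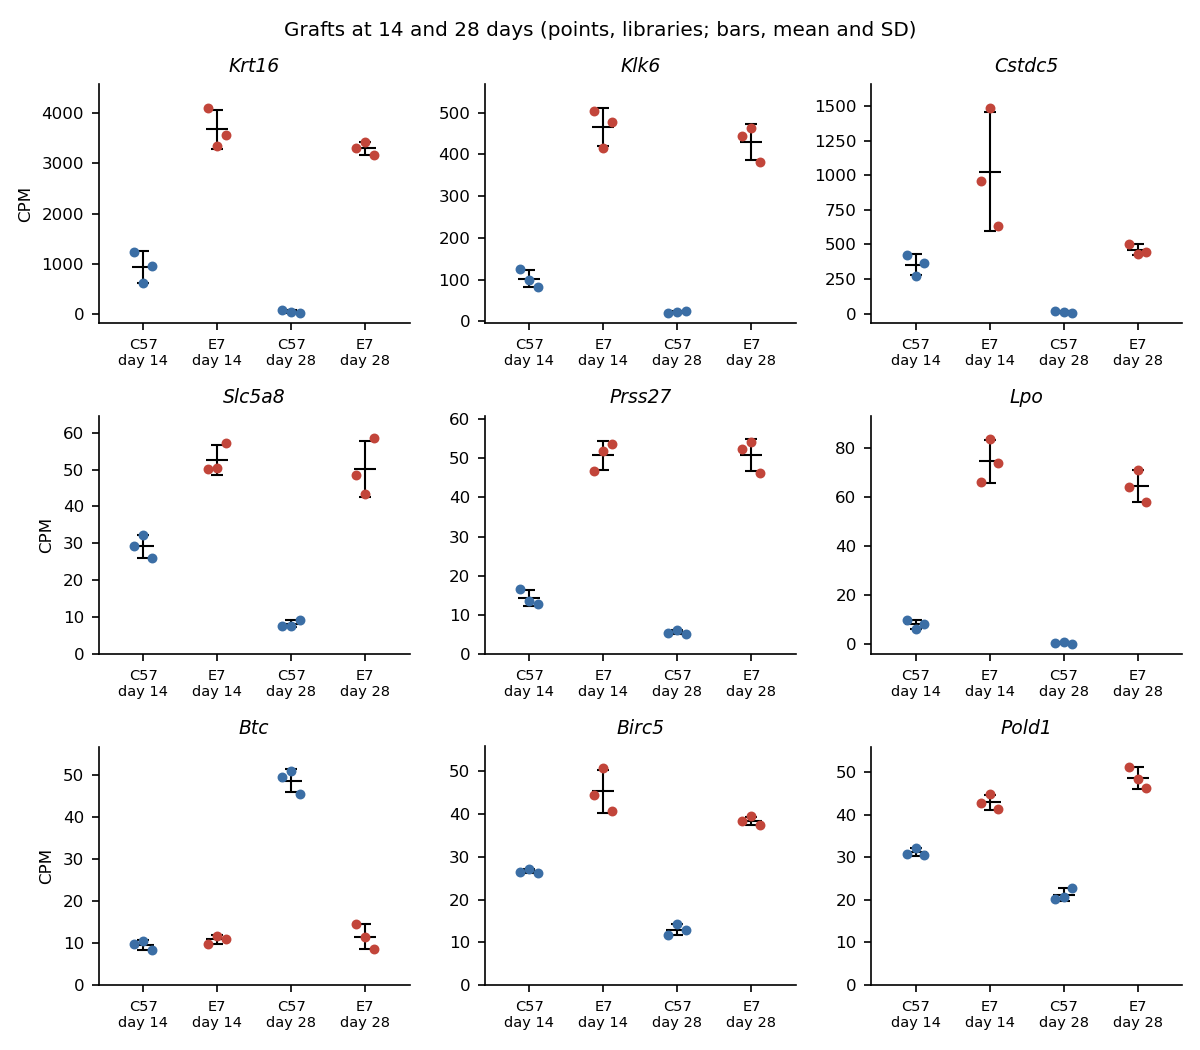
Level in CPM (vertical axes, linear and from 0) of 9 genes whose E7 effect differed between 14 and 28 dpg, in C57 and E7 grafts of each day. Points are the 3 libraries of a group and bars the mean and standard deviation. The C57 grafts are lower at 28 than at 14 dpg for all but Btc, for which they are higher.

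Whether the E7 effect in grafts at 28 dpg differed from that in ungrafted ear was tested over all 24 libraries. Ear libraries were sequenced on another flow cell, so that a difference between tissues cannot be told apart from a difference between flow cells in levels, although each E7 effect was taken within its own flow cell. Of 16612 genes 1234 passed (7.43%), 381 with a higher and 853 with a lower log2 fold change in the graft. With upper-quartile scaling the split was 600 higher and 625 lower, and with only the 12 libraries compared 1033 higher and 1157 lower. The count was 786 without the C57 ear library titled C57_8wks_287, 787 without the E7 ear library titled E7_8wks_290 and 743 without E7 graft replicate 1.

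The E7 effect on most mitosis genes was smaller in the graft. Of 30 mitosis genes 26 had a log2 fold change that was lower in the graft than in ear past the threshold (median difference -1.01), against 5.13% of all genes. Of the other cell-cycle lists 2 of 19 licensing genes, none of 21 replication fork genes and 2 of 20 repair genes were lower (median differences -0.24, -0.17 and -0.17). Mki67 went from 99.7 ± 23.5 CPM in C57 to 826 ± 48.7 CPM in E7 ear, against 126 ± 22.4 and 413 ± 34.7 CPM in the grafts (difference -1.34 ± 0.23, adjusted p = 0.00190). The C57 groups overlapped and the E7 grafts lay between C57 and E7 ear. Cdk1 differed by -1.07 ± 0.18, adjusted p = 0.00147. Cdkn2a was nearly absent from C57 ear (0.0996 ± 0.0874 CPM, at most 0.164 CPM in a library), and was 7.80 ± 1.21 CPM in E7 ear, 3.04 ± 1.98 CPM in C57 grafts and 6.14 ± 1.05 CPM in E7 grafts. The E7 groups were close in level and the C57 grafts held transcript that C57 ear lacked, and a fitted difference is not given because it depends on the prior count.

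Several epidermal genes were already higher in C57 grafts than in C57 ear. Filaggrin stood at 186 ± 17.4 CPM in C57 ear and 737 ± 223 CPM in C57 grafts, and at 1834 ± 245 and 1901 ± 177 CPM in the E7 tissues (difference -1.93 ± 0.33, adjusted p = 0.00153). Casp14 stood at 51.4 ± 5.29 and 136 ± 6.10 CPM in the C57 tissues, and at 422 ± 27.0 and 283 ± 25.9 CPM in the E7 tissues (difference -1.99 ± 0.32, adjusted p = 0.00112). The E7 levels of Flg were close, and for Casp14 the E7 graft was lower than E7 ear. Gjb6 stood at 2.09 ± 0.123 CPM in C57 ear, 10.4 ± 0.603 in C57 grafts, 63.0 ± 4.20 in E7 ear and 40.0 ± 2.36 in E7 grafts (difference -2.95 ± 0.35, adjusted p = 9.49e-05). Klk6 gave a difference of -1.43 ± 0.30, adjusted p = 0.00749. Sprr2h stood at 1.59 ± 0.0361 CPM in C57 ear and 2.90 ± 1.76 CPM in C57 grafts. In E7 ear it was 177 ± 3.11 CPM and in E7 grafts far lower, at 51.0 ± 4.81 CPM (difference -2.77 ± 0.36, adjusted p = 1.90e-04). Crnn, which encodes cornulin, stood at 0.317 ± 0.162 CPM in C57 ear and 19.7 ± 6.495 in C57 grafts, against 13.4 ± 2.80 and 10.7 ± 3.73 CPM in the E7 tissues (difference -6.18 ± 0.92, adjusted p = 7.89e-04). The antiprotease Slpi did not pass in grafts and stood at 2.17 ± 0.398 CPM in C57 and 64.6 ± 10.8 CPM in E7 ear (difference -4.73 ± 0.85, adjusted p = 0.00303).

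Krt71 of the hair sheath was 0.547 ± 0.518 CPM in C57 ear and 8.05 ± 4.82 CPM in E7 ear, against 406 ± 161 and 164 ± 88.3 CPM in C57 and E7 grafts (difference -5.22 ± 1.20, adjusted p = 0.0134). Krt24 was lower in E7 skin in both settings, from 297 ± 39.3 to 76.6 ± 24.1 CPM in ear and from 147 ± 40.5 to 6.77 ± 4.03 CPM in grafts, with a larger fold in the graft (difference -2.47 ± 0.56, adjusted p = 0.0122). Oas1a had higher levels in both graft groups than in the matching ear, 11.8 ± 2.51 and 79.1 ± 11.0 CPM against 1.58 ± 0.268 and 28.6 ± 1.35 CPM, and a smaller fold (difference -1.43 ± 0.33, adjusted p = 0.0129). Most interferon-stimulated genes did not share this difference. Of 31 in the list 3 were lower in the graft past the threshold and none higher (median difference -0.08), against 5.13% of all genes lower. Tslp, higher in E7 ear (12.0 ± 2.46 against 3.63 ± 1.35 CPM), did not pass in grafts, with a fold change below 0 on the log2 scale (difference -2.16 ± 0.46, adjusted p = 0.00715). The respiratory chain gene Cyc1 went the other way, at 88.6 ± 1.94 and 128 ± 6.83 CPM in C57 and E7 grafts against 125 ± 9.58 and 131 ± 13.8 CPM in ear (difference 0.46 ± 0.10, adjusted p = 0.00881).

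**Figure D5:**
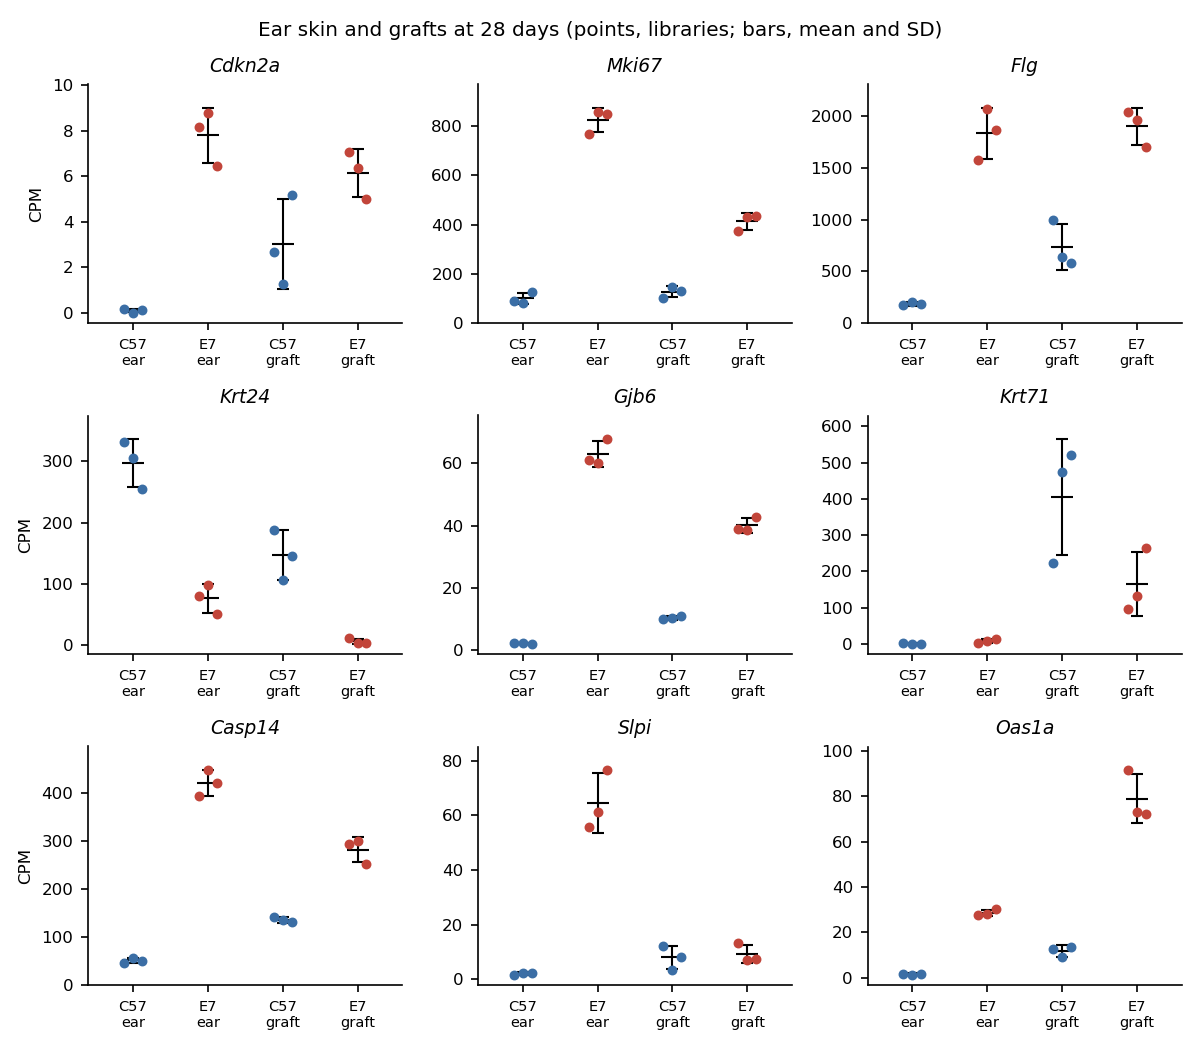
Level in CPM (vertical axes, linear and from 0) of 9 genes in C57 and E7 ear skin and in C57 and E7 grafts at 28 dpg. Points are the 3 libraries of a group and bars the mean and standard deviation. C57 grafts lie above C57 ear for Cdkn2a, Flg, Gjb6, Krt71, Casp14, Slpi and Oas1a, and Slpi is far higher in E7 ear than in the other groups.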

How the data were processed

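Whole ear skin and grafts were snap frozen, RNA was taken with Trizol and Qiagen RNeasy columns, and TruSeq v2 libraries were made from total RNA, per the labels' protocols. The deposited files hold read counts per Entrez gene, made by the authors and not normalised. Per the submitters' processing notes, graft reads passed FastQC and Trimmomatic, ear reads bcl2fastq 1.8.4 and Trimmomatic, and the build was mm10. The aligner, counter, annotation and strand are "not given in the sources used here". Counts of overlapping, antisense or near-identical genes are therefore uncertain. Of 27180 rows 25275 were named by Entrez identifier from the RefSeq gene table of GRCm38.p6, and 1904 unnamed rows held 0.938 to 1.17% of the counts of the 6 libraries compared. Unnamed rows were not removed, so those that passed the filter given below entered library sizes and tests.

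Counts were tested with edgeR 4.0.16 and limma 3.58.1 in R 4.3.3, with robust quasi-likelihood F tests and Benjamini-Hochberg adjustment over all genes tested, at an adjusted p of 0.05. Low genes were removed per group with filterByExpr, at a minimum count of 10 and a minimum total of 15, and libraries were scaled by TMM. All 18 graft libraries entered the fit (16189 genes, biological coefficient of variation 0.149) for the comparison at 28 dpg and its difference from 14 dpg, and all 24 libraries (16612 genes, 0.135) for the difference from ear. The fits were tested on simulated data. The standard error is the absolute log2 fold change over the square root of F. CPM values are counts over TMM-scaled library sizes, and 3 counts in 1 library equal 0.267 to 0.426 CPM. Floors and counting intervals (95%, exact) cover counting error only. Chi-square values per gene between libraries of a group were 3.78 to 13.9, so that no library was a copy of another. Figures used matplotlib 3.10.9 and tables pandas 2.3.3, numpy 2.4.6 and scipy 1.17.1, all under Python 3.11.15.

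The 57 gene lists and their anchor genes were chosen with earlier results of these data known, so their counts are descriptions. Named genes were the transgene, the anchors of each list, up to 3 members of a list with the smallest adjusted p, and the 12 largest rises and 12 largest falls with at least 1 CPM, no overlap and a symbol other than a predicted one. For the other comparisons they were those of these genes whose difference passed and the 6 largest differences in each direction. Some members that the rule names are not reported here. The alternatives were RLE and upper-quartile scaling, no filter, a filter of 1 CPM in 3 libraries, DESeq2 1.42.0, a log2 limit of 1, fits of fewer libraries, a replicate block and leaving out each library.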

Additional observations from a re-analysis of the deposited data

Results flagged for a closer look

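Tests of the difference between E7 effects set 27 genes apart between the days and 1234 between graft and ear, as given above. Their values follow with no explanation. On the log2 scale the effect at 28 dpg minus that at 14 dpg was 3.88 for Krt16, 3.66 for Cstdc5, 3.46 for Lpo, 2.07 for Klk6, 1.77 for Slc5a8, 1.36 for Prss27, 0.81 for Birc5, 0.74 for Pold1 and -2.27 for Btc.

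The effect in grafts at 28 dpg minus that in ear was -6.18 for Crnn, -5.22 for Krt71, -4.73 for Slpi, -2.95 for Gjb6, -2.77 for Sprr2h, -2.47 for Krt24, -2.16 for Tslp, -1.99 for Casp14, -1.93 for Flg, -1.43 for Klk6, -1.43 for Oas1a, -1.34 for Mki67, -1.07 for Cdk1 and 0.46 for Cyc1. Each of these 14 genes passed under every alternative tried other than the log2 limit of 1, which was left out of this count and which Cyc1 does not meet. The 14 are a chosen part of the genes that the rule names, so this does not describe the rest. Others lost the call under some alternatives, such as Acod1 (difference -7.39, passed under 10 of 18) and E2f1 (-0.52, passed under 4 of 18).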

How the results depend on the processing

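The comparison at 28 dpg gave 5109 to 6438 genes over the other normalisations, filters, fits and DESeq2, and 1339 with the log2 limit of 1. Leaving out a library gave 4366 (without C57 replicate 3) to 4804 genes (without C57 replicate 2). No gene called in the fit of 18 libraries changed sign under any of these. The difference between days gave 155 genes with DESeq2 (86 higher, 69 lower), 55 with only its 12 libraries fitted and 16 with the log2 limit, and 12 to 72 on leaving out a library. The difference from ear gave 2190 genes with only its 12 libraries fitted (1033 higher, 1157 lower), 372 with the log2 limit, and 743 to 1097 on leaving out a library. The share of calls that were higher at 28 dpg was 58.4%, against 47.9% with upper-quartile scaling, which moved the median of all genes by -0.06. For the difference from ear it was 30.9%, against 49.0% with upper-quartile scaling and 47.2% with its 12 libraries.

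The log2 limit of 1 was left out of the counts that follow. Of 238 named genes that passed at 28 dpg, 191 passed under every other alternative and 47 lost the call under at least 1. Of 114 list counts 68 stayed within 1.5 times under every other alternative. The cause of these changes was not tested, except that leaving out a library or a filter changes the number of samples or genes. Deviations of C57 and E7 libraries with the same replicate number correlated at 0.05, 0.04 and -0.09, and those with unlike numbers at -0.16 to 0.14. The labels do not say whether the numbers pair the samples, and correlations over so few libraries cannot decide it. The replicate block gave 5784 genes at 28 dpg with 18 libraries and 6261 with 6, and 25 for the difference between days. For the ear no paired analysis was possible because ear and graft libraries share no replicate numbers. Depth limits genes under about 0.4 CPM, where a group can hold 3 or fewer counts.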
